A study of Mus musculus with 58 samples.

Results

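Conjugation is the second phase of the liver's handling of drugs, hormones and bile acids, in which an enzyme joins a polar group to the molecule so that it can be exported. The genes described here encode 3 such enzyme superfamilies, the UDP-glucuronosyltransferases (Ugt), the cytosolic sulfotransferases (Sult) and the glutathione S-transferases (Gst). They are all genes whose symbol starts with Ugt1a, Ugt2, Ugt3, Sult, Gsta, Gstm, Gstt, Gstp, Gsto, Gstz or Gstk and that the array measured with a transcript cluster (a group of probes read as one transcript) carrying only that symbol. The rule found 49 genes of the 22180 genes measured in this way, each with 1 cluster, and used no expression value. They comprise 10 Ugt, 21 Sult and 18 Gst genes, and no Ugt1a or Gstz gene had a cluster of its own.

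RNA of 29 normal livers and 29 liver tumors was hybridised, 1 array per tissue sample. All mice were adults of mixed background from the inbred strains C57BL/6, FVB/NJ and 129/Sv that had received adeno-associated virus (AAV), a vector for gene transfer, soon after birth, so both tissues come from vector-treated animals and no untreated liver was compared. The series was made to ask whether insertion of the vector contributed to hepatocellular carcinoma. The titles were read as naming 39 animals, 18 of which gave 1 array of each tissue and 1 of which gave 2 tumors. Some titles leave the animal in doubt. A looser reading, which gives some arrays the same animal as another, changed the call of 0 of the 49 genes. Some titles carry a +/- or -/- mark, without naming the gene in the labels, and the labels give no vector dose and, for nearly all arrays, no vector. Normal liver here therefore means liver labelled as normal in treated mice, 18 of them from mice with a tumor on another array, and pieces of tumor and liver hold several cell types.

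A Ugt enzyme takes glucuronic acid from UDP-glucuronic acid, except for the Ugt3 enzymes, which use other UDP-sugars. Sult enzymes take sulfate from the donor PAPS and act on phenols, steroids, bile acids and amines, and Gst enzymes join the tripeptide glutathione to reactive molecules. Hepatocytes carry most of these enzymes, and many of the genes lie in rows of close copies made by duplication. A cluster may read RNA of such a copy, which was not tested, so single members of the Ugt2b, Sult2a, Gstm and Gstp rows are uncertain. The same holds for the neighbours Ugt3a1 and Ugt3a2 and for Sult3a1 and Sult3a2.

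Each value is a log2 signal, so a difference of 1 is a 2-fold difference in signal, and the values of different genes are not set against each other because probes differ in brightness. Array medians lay between 6.72 and 7.15. The arrays of tumors 9, 16 and 20 and of normal livers 16 and 19 stood apart in these genes. In tumor 9 the mean of 6 hepatocyte markers was 7.94, against at least 11.50 in the other 28 tumors and 12.06 to 12.74 in normal liver, and its 3 markers of B and plasma cells had a mean of 11.93 against at most 9.30 in normal liver. Its array also agreed least with the rest, at a mean correlation of 0.839 where the next lowest was 0.914. Tumor 20 and normal liver 19, which come from one animal, had neutrophil marker means of 10.39 and 10.51, and tumor 16 and normal liver 16, also one animal, 8.28 and 9.31, whereas the other arrays reached at most 7.37 in tumors and 7.71 in normal liver. Normal livers were labelled male on 20 arrays and female on 9, and tumors male on 17 and female on 11, with 1 tumor unlabelled. On 7 arrays sex-linked genes went against the gender label, and the sexes were not compared.

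Tumors were compared with normal liver by limma with the animal as a random block, and a gene was called where the Benjamini-Hochberg adjusted p over all 22180 genes was under 0.05. Of the 49 genes 14 were lower and 6 were higher in tumors, and 29 were not called. Among all genes tested 14.3% were lower and 17.9% were higher. By superfamily, 2 Ugt genes were lower and 1 was higher, 8 Sult genes were lower and 0 higher, and 4 Gst genes were lower and 5 higher. The median change, tumor minus normal liver, was -0.12 over the 49 genes and -0.02 over all genes.

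A log2 change of 1 or more was seen in 5 of the 14 lower genes, Ugt3a1, Ugt3a2, Sult2a8, Sult3a1 and Sult3a2, against 0.947% of all genes. Only Gstt3 among the 6 higher genes reached that size, against 1.03% of all genes. With each array centred on its median, the share of higher genes among all calls rose from 55.6% to 73.1%, while the 49 genes gave 6 higher and 12 lower calls. Of all genes 21.1% were then higher and 7.79% lower. The count of higher genes depended on the arrays that stood apart: it was 9 without tumor 9, where 18.6% of all genes were higher. It was 11 without tumors 9, 16 and 20 and normal livers 16 and 19, where 23.4% of all genes were higher. Ugt2b5, Ugt2b35, Gstm3, Gstm4 and Gstk1 were then called as well. These arrays were chosen after these genes were seen to be low in them, and more tumors than normal livers were left out. The added calls are therefore no independent support for a rise. Of 6 hepatocyte markers 2 were lower and 0 higher, with a median change of -0.38. All 5 Kupffer cell markers were lower (mean level 8.14 to 10.92 in normal liver and 6.40 to 10.61 in tumors) and all 5 proliferation markers higher (6.60 to 8.56 and 6.93 to 9.54). Of 5 sinusoidal endothelium markers 3 were lower (8.98 to 10.47 and 7.96 to 10.42), and of 6 cholangiocyte markers 4 were lower (6.71 to 8.81 and 6.45 to 7.32). Of 5 recruited macrophage markers 3 were higher (7.19 to 9.71 and 7.54 to 9.77), as were 2 of 4 markers of other endothelium (7.70 to 9.73 and 7.90 to 10.09). Stellate cell and fibroblast markers had 2 higher and 3 lower of 6 (8.46 to 10.61 and 7.64 to 10.46), and of 5 T and natural killer cell markers 1 was higher (6.78 to 8.45 and 6.54 to 10.88). The part of these markers in the results was not tested. In pieces of tissue, fewer hepatocytes and less RNA per hepatocyte cannot be told apart.

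**Figure D1:**
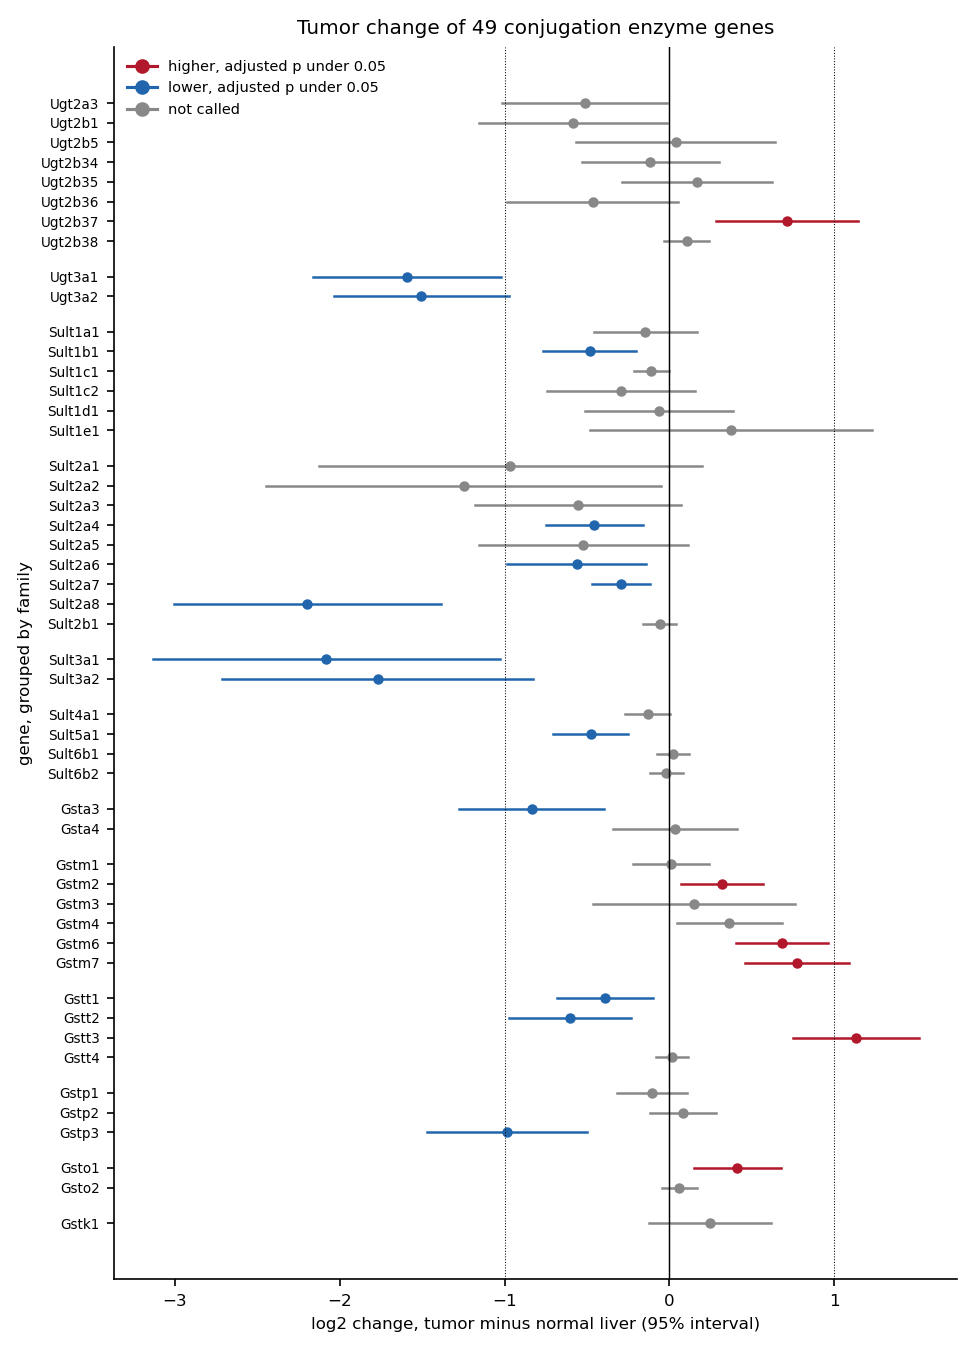
The log2 change from normal liver to tumor (horizontal axis) is plotted for each of the 49 genes, grouped by family, with its 95% interval from the limma fit over 58 arrays and dotted lines at a change of 1 either way. Among called genes, both Ugt3 genes, Sult2a8 and both Sult3 genes lie beyond -1 and Gstt3 beyond 1, and the intervals of Sult2a1 and Sult2a2, which were not called, are the widest of the 49.

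The Ugt2 family, which glucuronidates steroids, bile acids and many drugs, had 8 measured genes, of which 1 was higher and 0 were lower. Ugt2b36 ran from 10.11 to 12.87 in normal liver with a median of 12.41, and from 5.34 to 12.64 with a median of 12.04 in tumors. The lowest tumor value is that of tumor 9, the next is 10.30, and otherwise the tissues overlapped. Its change of -0.47 (SE 0.26) had an adjusted p of 0.165. Ugt2b1 had the largest fall, -0.58 (SE 0.29), with an adjusted p of 0.11, and lower values in 11 of 18 pairs.

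Ugt2b37 was the Ugt2 gene that rose. It ran from 4.61 to 8.64 with a median of 5.42 in normal liver, and from 5.21 to 8.35 with a median of 6.03 in tumors. The change was 0.71 (SE 0.22), a 1.64-fold rise with an adjusted p of 0.00812, and in the arrays without a pair it was 0.73 with an adjusted p of 0.19. Here and below, the fit of the arrays without a pair used no animal block. The animal that gave 2 tumors is in it, so its tumors were taken as independent. The rise was uneven, since 7 tumors (6, 8, 11, 13, 14, 17 and 18) were above 7 and the others overlapped the bulk of normal livers, 2 of which were above 7. Ugt2b37 lies between Ugt2b5 and Ugt2a3 in the Ugt2 row of the RefSeq gene table, and these neighbours changed by 0.04 and -0.51 without a call. Ugt2b34, Ugt2b35 and Ugt2b38 changed by -0.12, 0.17 and 0.10, also without a call.

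Both Ugt3 genes fell. Ugt3a1, whose enzyme uses UDP-N-acetylglucosamine as the sugar donor, ran from 6.16 to 10.91 with a median of 9.96 in normal liver, and from 5.94 to 10.89 with a median of 7.73 in tumors. The bulk of tumors lay below the bulk of normal livers, but only tumors 23 and 28 were below the lowest normal liver. Its change was -1.59 (SE 0.29, 95% interval -2.16 to -1.02), a 3.01-fold fall with an adjusted p of 1.19e-05.

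Ugt3a2, whose enzyme uses UDP-glucose and UDP-xylose, ran from 8.06 to 12.13 with a median of 11.43 in normal liver, and from 6.72 to 11.89 with a median of 10.12 in tumors. Normal livers lay closer together (SD 0.79) than tumors (SD 1.32), and the tissues overlapped. The change was -1.51 (SE 0.27, 95% interval -2.04 to -0.98), a 2.84-fold fall with an adjusted p of 8.83e-06. Ugt3a1 and Ugt3a2 are direct neighbours. Tumors 23 and 28 were below the normal range of Ugt3a1, and tumors 4, 9, 13 and 16 below that of Ugt3a2. Normal liver 27 set both lower limits, and its Ugt3a2 value of 8.06 lay apart from the next lowest, 9.89. Tumors 23 and 28 had Ugt3a2 values of 8.42 and 8.57, also below 9.89, so the 2 lists depend on that array. In tumors 1, 24 and 25 both genes were close to or above the normal medians, with 10.89, 9.72 and 9.49 for Ugt3a1 and 11.89, 11.65 and 11.48 for Ugt3a2. In the 11 normal livers and 11 tumors without a pair, fitted without an animal block, Ugt3a1 fell by 1.61 (adjusted p = 0.0391). Ugt3a2 changed there by -1.13 (adjusted p = 0.0938).

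**Figure D2:**
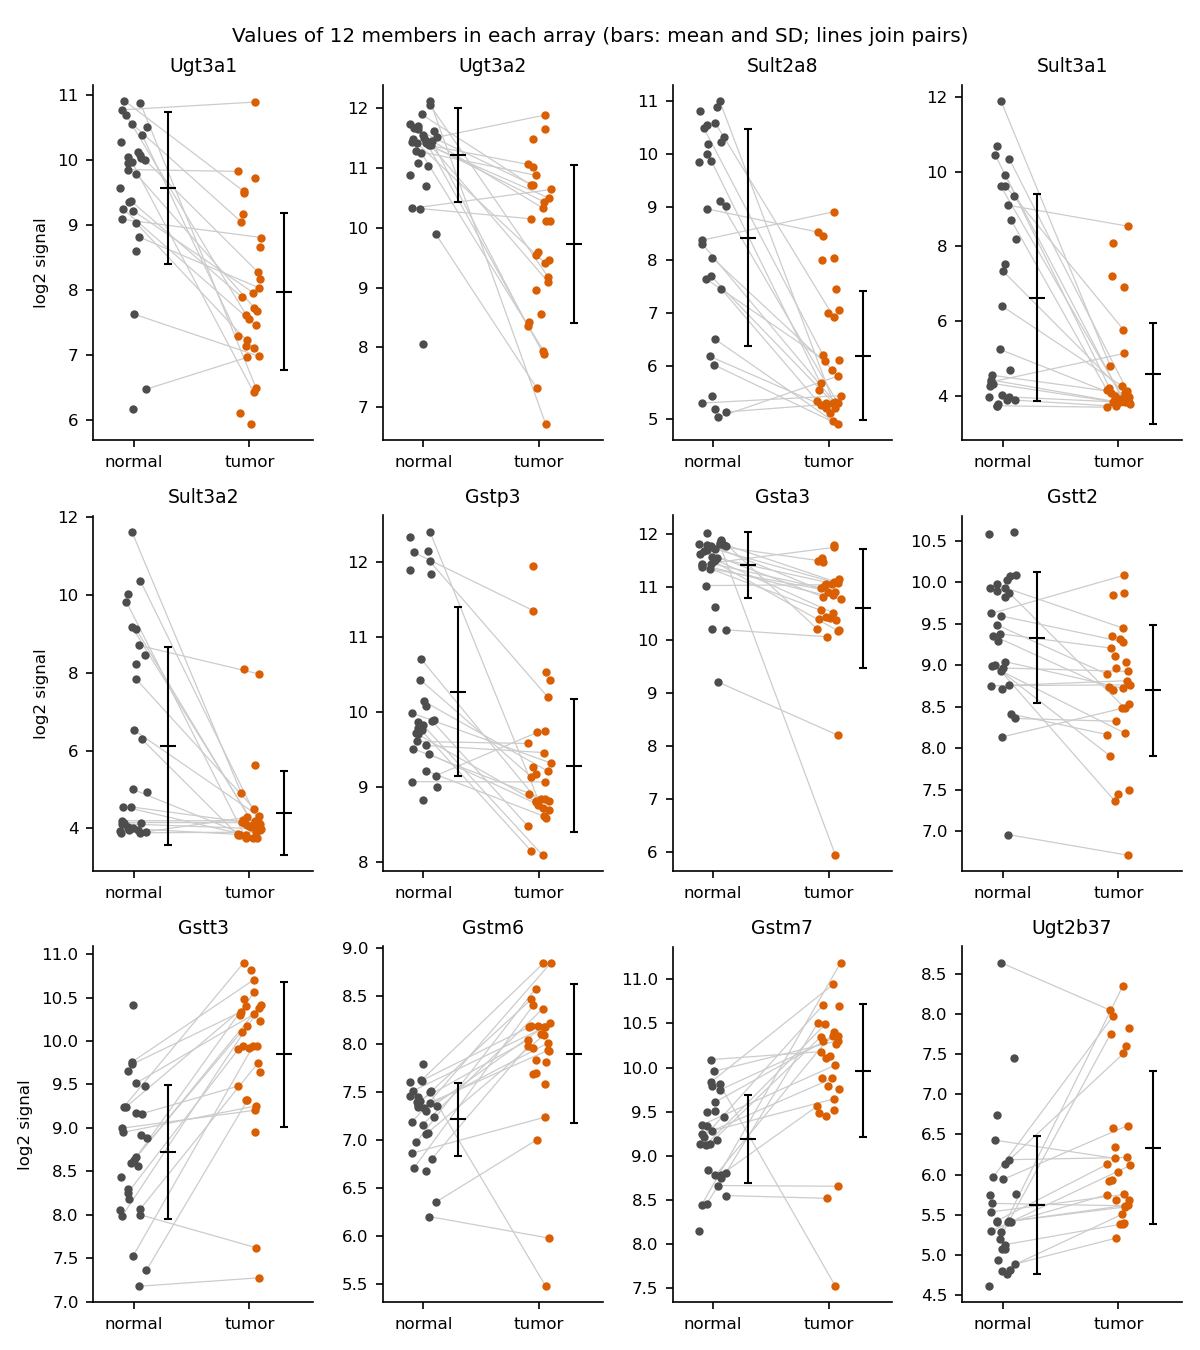
The log2 signal (vertical axis, scaled for each gene) of 12 genes is shown for every array, with 29 normal livers in grey and 29 tumors in orange, lines joining the 18 pairs and bars giving mean and SD. Sult3a1 and Sult3a2 split normal livers into a high and a low set while 4 tumors are above 6 for Sult3a1 and 2 for Sult3a2, and Gstm6 has 22 tumors above the highest normal liver.

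The Sult1 family, which sulfonates phenols, estrogens and thyroid hormones, had 6 measured genes, of which 1 was lower. Sult1b1, active on thyroid hormones, ran from 6.27 to 8.34 with a median of 7.54 in normal liver, and from 5.96 to 7.98 with a median of 6.81 in tumors. The tissues overlapped widely, and the change was -0.48 (SE 0.14) with an adjusted p of 0.0061. In the paired fit, made on the 18 pairs alone with each animal as a block, the adjusted p was 0.051 at a change of -0.50, and in the arrays without a pair it was 0.264 at -0.45. Sult1a1, the main phenol sulfotransferase, changed by -0.15 (SE 0.16, adjusted p = 0.504).

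Sult1e1, the estrogen sulfotransferase, varied far more between arrays than between tissues. It ran from 6.20 to 11.68 with a median of 6.77 in normal liver, and from 5.93 to 12.07 with a median of 7.90 in tumors. Values above 10 were seen in 6 normal livers and in tumors 2, 8, 15 and 20, so both tissues held high and low arrays. The change, 0.37 (SE 0.43), had an adjusted p of 0.534, and paired differences ran from -3.70 to 5.30, with 9 pairs higher and 9 lower. Sult1c1, Sult1c2 and Sult1d1 changed by -0.11, -0.29 and -0.06, all without a call.

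The Sult2 family, which sulfonates hydroxysteroids and bile acids, had 9 measured genes, of which 4 were lower and 0 higher, and all 9 changes were below 0, although that of Sult2b1 (-0.06) was 0.0018 after quantile normalization. Sult2a8, a bile acid sulfotransferase of mouse liver, showed the largest fall of the 49 genes. It ran from 5.04 to 11.004 with a median of 8.97 in normal liver, and from 4.91 to 8.91 with a median of 5.68 in tumors. Of the 29 normal livers 15 were above the highest tumor, while the other normal livers lay within the range of the tumors. The change was -2.20 (SE 0.40, 95% interval -3.01 to -1.39), a 4.59-fold fall with an adjusted p of 1.86e-05. In the arrays without a pair it was -2.65 with an adjusted p of 0.0141.

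Its neighbours in the Sult2a row fell less. The changes were -0.56 for Sult2a6 (adjusted p = 0.0325), -0.46 for Sult2a4 (adjusted p = 0.0131) and -0.29 for Sult2a7 (adjusted p = 0.00734). The Sult2a6 call was lost without the 7 arrays that went against the gender label, where the change was -0.39 and the adjusted p 0.179, and with centred arrays, where they were -0.51 and 0.0625. In the arrays without a pair none of the 3 was called, with changes of -0.50 for Sult2a6 (adjusted p = 0.485), -0.11 for Sult2a4 (adjusted p = 0.855) and -0.24 for Sult2a7 (adjusted p = 0.331). These 3 genes had low signals, with tumor medians of 4.19, 5.05 and 4.88, and the files state no detection limit.

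Sult2a1 and Sult2a2, hydroxysteroid sulfotransferases, had large changes that were not called. Sult2a2 ran from 4.39 to 12.29 with a median of 8.13 in normal liver, and from 4.53 to 11.996 with a median of 6.97 in tumors. Normal livers themselves filled that whole range, and the change of -1.25 (SE 0.60) had a 95% interval of -2.45 to -0.05 and an adjusted p of 0.103. Sult2a1 changed by -0.97 (SE 0.58, adjusted p = 0.203). Both were called in that paired fit, with changes of -1.82 for Sult2a2 (adjusted p = 0.0148) and -1.61 for Sult2a1 (adjusted p = 0.0409), whereas in the arrays without a pair Sult2a1 changed by 0.23. With the gender label as a covariate Sult2a2 was also called, at -1.42 (adjusted p = 0.0234). Sult2a1 was not called there, at -1.16 (adjusted p = 0.0582).

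Tumors 1, 24 and 25 had the 3 highest tumor values of Sult2a1, Sult2a2, Sult2a3, Sult2a4 and Sult2a5, but not of Sult2a6, which was 4.04 in tumor 24, nor of Sult2a7 and Sult2a8. Their Sult2a1 values were 11.34, 10.35 and 9.49 against at most 8.20 in the other 26 tumors. Their Sult2a5 values were 9.84, 9.41 and 7.65 against at most 6.06, and their Sult2a3 values were 9.37, 9.02 and 7.90 against at most 6.26. High values of these genes were also present in part of the normal livers, where 9 were above 8 for Sult2a1 and 5 for Sult2a5. The same 3 tumors had the 3 highest Ugt3a2 values. Tumors 1 and 24 were also close to normal liver over all genes. In them 0.83% and 1.46% of all genes were below the normal range, and 0.78% and 0.68% above it. In tumor 25 these shares were 4.78% and 2.91%, and in the other 26 tumors at least 2.44% and 2.53%.

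Both Sult3 genes, encoding sulfotransferases of amines, fell. Sult3a1 ran from 3.72 to 11.91 with a median of 5.24 in normal liver, and from 3.69 to 8.54 with a median of 3.99 in tumors. It was above 6 in 14 normal livers and in 4 tumors (20, 24, 25 and 27), and 10 normal livers were above the highest tumor. The change was -2.08 (SE 0.53, 95% interval -3.14 to -1.03), a 4.24-fold fall with an adjusted p of 0.00149.

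Sult3a2, the direct neighbour of Sult3a1, ran from 3.87 to 11.62 with a median of 4.56 in normal liver, and from 3.75 to 8.11 with a median of 4.09 in tumors. It was above 6 in 12 normal livers and in tumors 20 and 25. The change was -1.77 (SE 0.47, 95% interval -2.71 to -0.83), a 3.41-fold fall with an adjusted p of 0.00249. For both genes the low set of normal livers was at the level of most tumors. These signals were low, with tumor medians of 3.99 for Sult3a1 and 4.09 for Sult3a2, and the lowest value of any cluster was 2.91. The files state no detection limit, so the sizes of both falls are uncertain. Neither call was kept in the arrays without a pair, where the changes were -0.94 for Sult3a1 (adjusted p = 0.565) and -0.90 for Sult3a2 (adjusted p = 0.507).

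Of the 4 genes of the Sult4, Sult5 and Sult6 families, Sult5a1 fell. It ran from 5.58 to 7.94 with a median of 6.44 in normal liver and from 5.68 to 6.90 with a median of 6.07 in tumors. The highest normal livers had no counterpart among tumors, and the change was -0.48 (SE 0.11) with an adjusted p of 0.000772. The arrays without a pair gave -0.52 with an adjusted p of 0.0576. Sult4a1, a sulfotransferase best known from brain, changed by -0.13 (SE 0.07, adjusted p = 0.127), although it was lower in 15 of 18 pairs. Sult6b1 and Sult6b2 changed by 0.02 and -0.02.

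Of the 2 Gsta genes with a cluster of their own, Gsta3 fell. Its enzyme detoxifies aflatoxin epoxide in mouse liver. Gsta3 ran from 9.20 to 12.02 with a median of 11.62 in normal liver, and from 5.94 to 11.78 with a median of 10.85 in tumors. The extreme low values belong to tumor 9 (5.94), tumor 20 (8.20) and normal liver 19 (9.20), and the remaining tumors overlapped with normal livers. The change was -0.84 (SE 0.22), a 1.78-fold fall with an adjusted p of 0.00229, and -0.63 with an adjusted p of 0.0768 in the arrays without a pair. Gsta4, whose enzyme acts on the lipid peroxidation product 4-hydroxynonenal, changed by 0.03 (SE 0.19, adjusted p = 0.912).

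In the Gstm family 3 of 6 genes rose and 0 fell. Gstm6 ran from 6.21 to 7.80 with a median of 7.34 in normal liver, and from 5.48 to 8.84 with a median of 8.04 in tumors. Of the 29 tumors 22 were above the highest normal liver, and tumors 9 and 20 were below the lowest. The change was 0.68 (SE 0.14, 95% interval 0.41 to 0.96), a 1.61-fold rise with an adjusted p of 9.27e-05.

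Gstm7, next to Gstm6 in the row, ran from 8.15 to 10.09 with a median of 9.21 in normal liver, and from 7.52 to 11.19 with a median of 10.14 in tumors. Of the tumors 16 were above the highest normal liver, and 15 of these were among the 22 that were above it for Gstm6. That is 93.8% of the Gstm7 set and 68.2% of the Gstm6 set. Since 22 of all 29 tumors were above it for Gstm6, much of this overlap would arise without a link between the genes. The change was 0.77 (SE 0.16, 95% interval 0.46 to 1.09), a 1.71-fold rise with an adjusted p of 9.36e-05. Gstm2 rose by 0.32 (SE 0.12, adjusted p = 0.0414), a call that was lost in the paired fit (0.21, adjusted p = 0.195) and under 3 other alternatives.

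The other 3 Gstm genes were not called with all arrays. Gstm3 ran from 7.79 to 12.42 with a median of 11.50 in normal liver and from 5.67 to 12.56 with a median of 11.84 in tumors. Tumors 9 and 20 were the 2 tumors below the normal range, and the lowest normal liver was number 19. The change was 0.15 (SE 0.31, adjusted p = 0.743). Without tumors 9, 16 and 20 and normal livers 16 and 19, it was 0.48 with an adjusted p of 0.0106. Those arrays were chosen after seeing the data. Gstm4 changed by 0.36 (adjusted p = 0.0732), and by 0.45 without tumor 9 (adjusted p = 0.0117). Gstm1 changed by 0.01 (SE 0.12, 95% interval -0.22 to 0.24).

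The Gstt family, which acts on small halogenated and sulfate-bearing molecules, moved in both directions. Gstt3 ran from 7.18 to 10.42 with a median of 8.66 in normal liver, and from 7.28 to 10.90 with a median of 9.95 in tumors. Most tumors lay in the upper part of the normal range and 5 (8, 13, 14, 25 and 28) were above it, with tumors 9 and 20 again lowest. The change was 1.13 (SE 0.19, 95% interval 0.75 to 1.51), a 2.19-fold rise with an adjusted p of 3.89e-06, and it was called under all 14 alternatives tried.

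Gstt1 and Gstt2 fell. Gstt2 ran from 6.96 to 10.61 with a median of 9.38 in normal liver, and from 6.71 to 10.08 with a median of 8.76 in tumors, a change of -0.60 (SE 0.19) with an adjusted p of 0.00928. Gstt1, the direct neighbour of Gstt3, changed by -0.39 (SE 0.15) with an adjusted p of 0.0323. Both genes overlapped widely between tissues, and the Gstt1 call was lost under 5 alternatives, among them the paired fit (-0.35, adjusted p = 0.133) and the fit without tumor 9 (-0.34, adjusted p = 0.0527). Gstt4, which lies between Gstt1 and Gstt2, changed by 0.02 (SE 0.05).

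Of the 3 Gstp genes 1 fell. Gstp3 ran from 8.82 to 12.40 with a median of 9.86 in normal liver, and from 8.09 to 11.94 with a median of 9.07 in tumors. Of the 29 tumors 11 were below the lowest normal liver, and values above 11 were seen in 7 normal livers and in tumors 8 and 25. The change was -0.99 (SE 0.24, 95% interval -1.47 to -0.50), a 1.98-fold fall with an adjusted p of 0.00115. In the arrays without a pair it was -0.92 with an adjusted p of 0.228.

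Gstp1, the pi-class enzyme that is a marker of altered foci in rat liver, changed by -0.10 (SE 0.11, 95% interval -0.32 to 0.11). It ran from 12.30 to 13.36 in normal liver with a median of 12.94 and from 10.41 to 13.25 with a median of 12.84 in tumors, the lowest value being that of tumor 9 and the next 12.19. No tumor was above the highest normal liver. The cluster named Gstp2 changed by 0.08 (SE 0.10), and since its number lies apart from those of Gstp1 and Gstp3 in the array's numbering, it is uncertain whether it reads that gene.

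Gsto1, an omega-class enzyme that reduces dehydroascorbate and thiol adducts, ran from 9.11 to 10.45 with a median of 9.98 in normal liver, and from 8.26 to 11.47 with a median of 10.33 in tumors. Of the tumors 13 were above the highest normal liver and tumor 9 was below the lowest. The change was 0.41 (SE 0.13, adjusted p = 0.013), in the paired fit it was 0.49 with an adjusted p of 0.121, and in the arrays without a pair 0.26 with an adjusted p of 0.353. Gsto2 changed by 0.06 (SE 0.05). Gstk1, the enzyme of mitochondria and peroxisomes, ran from 10.78 to 12.45 in normal liver and from 8.71 to 12.95 in tumors, and its change of 0.25 (SE 0.19, adjusted p = 0.318) became 0.38 without tumor 9 (adjusted p = 0.0438).

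Over the 49 genes, those with at least 10 tumors above the highest normal liver were Gstm6, Gstm7 and Gsto1, that is 3 genes, against 4.38% of all genes. Gstp3 alone had at least 10 tumors below the lowest normal liver, against 2.06% of all genes. The lowest normal liver was often 1 of 2 arrays, since normal liver 19 held the lowest normal value of 13 of the 49 genes and normal liver 16 that of 9. Against the 27 other normal livers, Gstt1 also had 11 tumors below the range. The median SD of the 49 genes was 0.61 in normal liver and 0.87 in tumors, and 67.3% of them had a wider spread in tumors, against 67.4% of all genes.

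The paired differences, tumor minus normal liver of the same animal, describe the same arrays animal by animal. Of the 49 genes 8 were lower in at least 15 of 18 pairs, against 7.28% of all genes, and 4 were higher, against 10.2%. The lower ones were Sult3a1 and Gstp3 (17 pairs each), Ugt3a1, Ugt3a2, Sult3a2 and Gsta3 (16 each), and Sult2a4 and Sult4a1 (15 each). These counts go by sign alone. Where the normal liver was already low, some Sult3 pairs hardly differed. Examples are -0.04 (tumor 19) and -0.15 (tumor 9) for Sult3a1, and -0.002 (tumor 1) and -0.003 (tumor 8) for Sult3a2. Higher in at least 15 pairs were Gstt3 (17), Gstm6 (16), Gstm7 and Ugt2b37 (15 each).

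Size differed widely between animals. Sult3a1 differences ran from -7.11 in the pair of tumor 6 to 0.76 in that of tumor 1, with a median of -1.66, and 5 pairs (tumors 2, 4, 6, 13 and 15) were below -5. The same 5 pairs were below -5 for Sult3a2, whose median was -1.02. Sult2a8 ran from -5.78 in the pair of tumor 9 to 0.78 in that of tumor 20, with a median of -1.82. Gstt3 was lower in the pair of tumor 9 (-0.38) and higher in the other 17, by 0.10 to 2.42, with a median of 1.34. Across the 49 genes, a pair had between 11 (tumor 1) and 40 (tumor 9) lower genes, and the other pairs had 20 to 36. Of all genes 46.4% were lower in the pair of tumor 1, 48.3% in that of tumor 9 and 44.4% to 56.8% in the others.

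**Figure D3:**
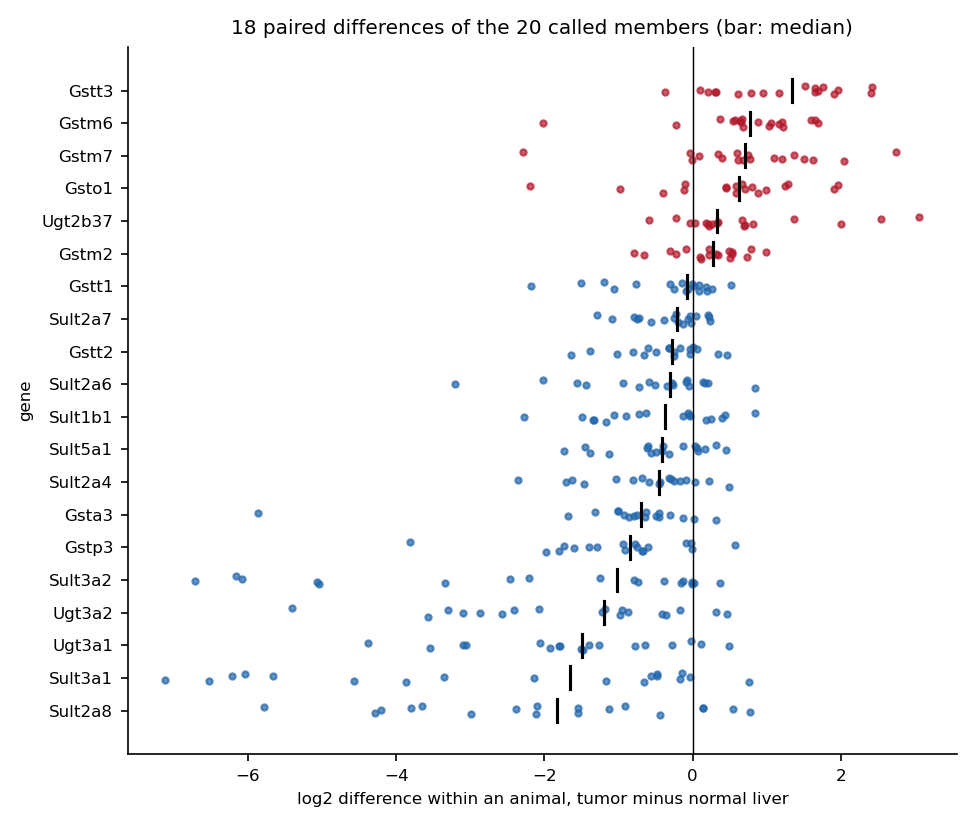
Each point is the log2 difference between tumor and normal liver of 1 animal (horizontal axis) for the 20 called genes, and the bar marks the median of 18 pairs. Gstt3 differences lie above 0 in 17 pairs, while those of Sult3a1, Sult3a2 and Sult2a8 spread from near 0 to below -5.

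Tumor by tumor, the deviation of each gene from its mean over 29 normal livers was taken, and the median over the 49 genes ran from -1.69 to 0.36 with a median tumor at -0.09. Tumors 9, 20 and 16 were lowest, at -1.69, -0.70 and -0.68, and the 29 normal livers ran from -0.64 to 0.35. In tumor 9 the median deviation was -5.24 for Ugt2, -4.07 for Gsta, -2.99 for Gstk1 and -1.71 for Gstm. Tumor 20 had -2.15 for Ugt2, -2.70 for Gsta and -1.37 for Gstm, but 1.89 for Sult3. Tumor 16 had -0.46 for Ugt2, -0.20 for Gstm and -2.69 for Gstk1.

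Below the lowest normal liver were 27 of the 49 genes in tumor 9, 15 in tumor 20 and 7 in tumor 16, and 0 to 4 in each of the other tumors. The share of all genes below it was 14.9% in tumor 9, 14.5% in tumor 20 and 6.84% in tumor 16. The part that the marker levels of tumor 9 have in its values was not tested. Tumor 20 and its paired normal liver 19 had ordinary hepatocyte marker means, 12.55 and 12.60. Both were the highest of their tissue in the mean of the acute phase genes Saa2, Lcn2 and Orm2, a list chosen after its values were seen. The means were 13.07 and 13.29, against medians of 9.84 in tumors and 10.12 in normal liver. Tumor 16 and normal liver 16 had 10.56 and 11.93, ranks 12 and 4 from the highest of their tissue. Whether these levels bear on the low genes was not tested.

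At the other end, 10 of the 49 genes were above the highest normal liver in tumor 13, where 8.47% of all genes were, and 9 in tumor 14, where 4.36% were. By family, the Gstm median was above 0 in 26 of 29 tumors and 16 of 29 normal livers, with 6 tumors above and 2 below the normal range. The Gsto median was above the normal range in 13 tumors and Gstk1 in 7. Since each deviation is from a mean, normal livers also fall on either side of 0. The Ugt3 median was below 0 in 25 tumors and 12 of 29 normal livers, Sult2 in 26 and 20, Sult3 in 27 and 16, and Ugt2 in 10 and 13.

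**Figure D4:**
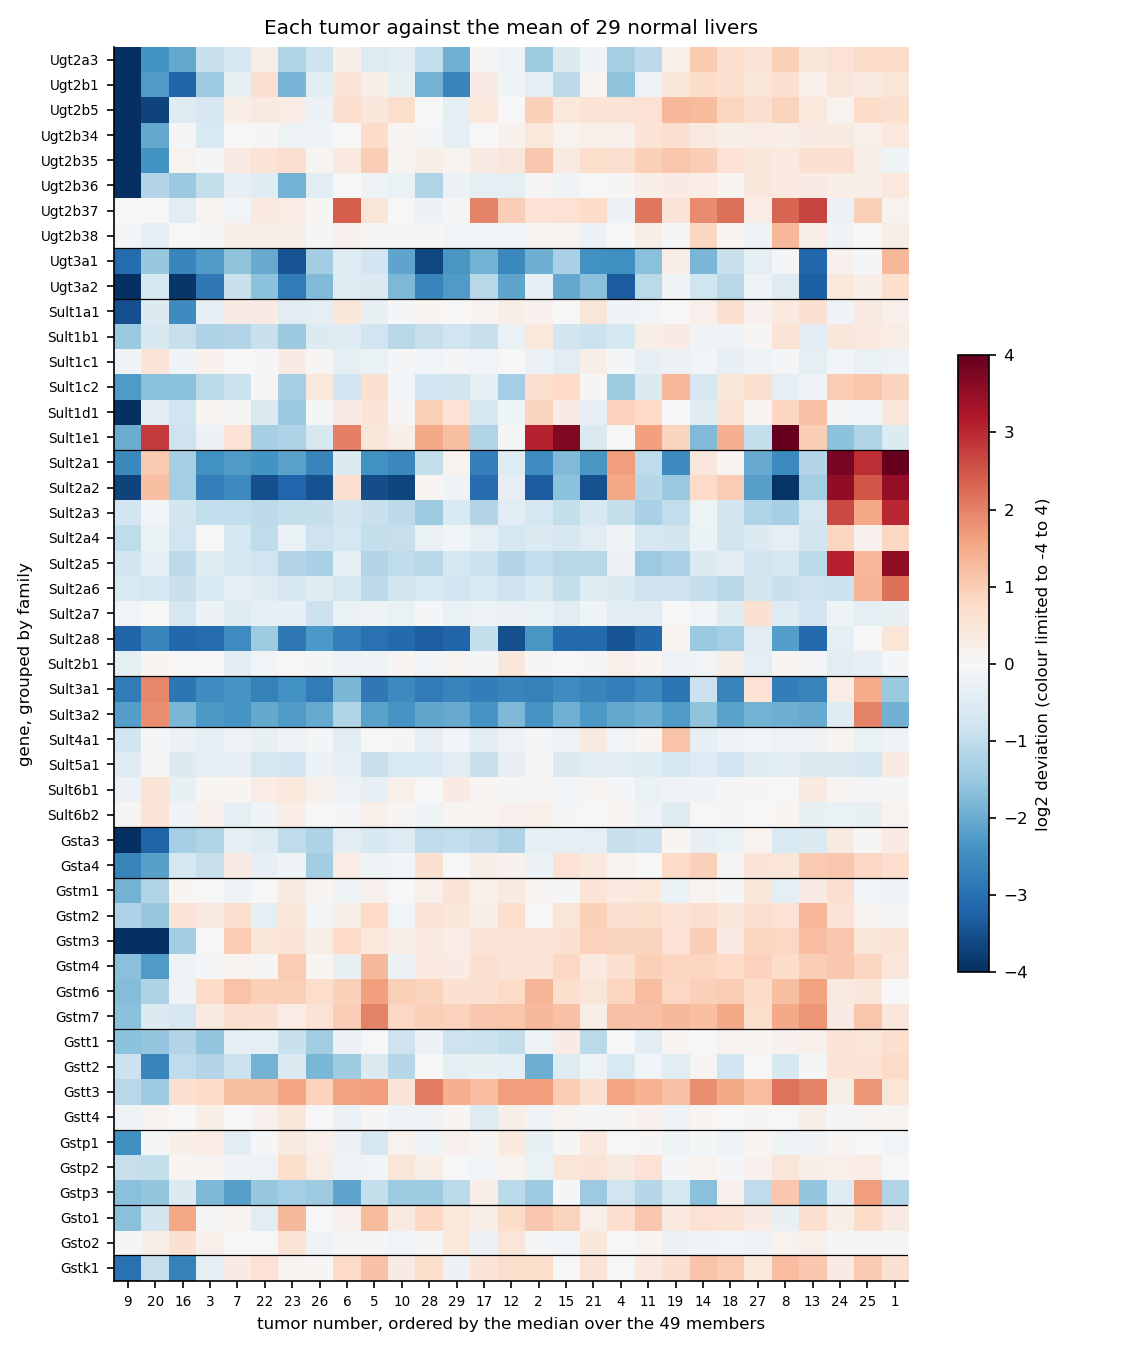
Rows are the 49 genes by family, columns the 29 tumors ordered by their median deviation, and colour the log2 deviation from the mean of 29 normal livers, limited to 4 either way. Blue rows run across nearly all tumors for Ugt3, Sult2a8 and Sult3, red rows for Gstm6, Gstm7 and Gstt3, and tumors 9 and 20 at the left are blue in most families.

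**Figure D5:**
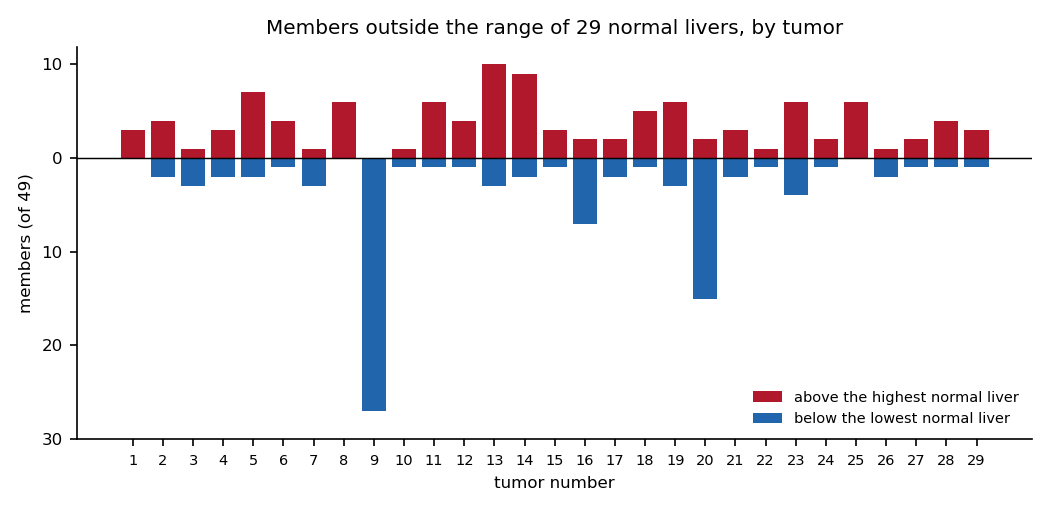
For each tumor, bars give how many of the 49 genes were above the highest (upwards) or below the lowest (downwards) of 29 normal livers. Tumor 9 has 27 genes below and tumor 20 has 15, and tumors 13 and 14 have 10 and 9 above.

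Promoters are shown because direct neighbours moved together, Ugt3a1 with Ugt3a2 and Sult3a1 with Sult3a2. Whether a cluster of one neighbour also reads RNA of the other was not tested, so their likeness may not come from separate measurements. RefSeq windows of 250 bases before to 50 bases after a start (GRCm38.p6) were listed for 42 of the 49 genes, 52 windows in all, and were searched on both strands for 3 motifs. The HNF1 half-site GTTAAT, part of the site of hepatocyte nuclear factor 1, was in 10 of 52 windows, 19.2%, against 7.1% of all listed windows. It was in 5 of the 11 lower genes with a window (Ugt3a1, Sult2a4, Sult2a6, Sult3a2 and Gsta3) and in 0 of the 6 higher ones. Sult1a1, Sult1d1, Sult2a3, Sult2a5 and Ugt2a3, which were not called, held it too. Counted by gene, 2228 of all 27025 genes with a window held it, so 0 of 6 is near that share. The core of the antioxidant response element, TGACNNNGC, was in windows of Gsta3 and Gstm7, 3.85% of windows against 12.4% of all, and the core of the xenobiotic response element, GCGTG, was in windows of 6 genes, 15.4% against 32.4%. None of these matches overlapped another in the sequences printed, and a match of letters is not a binding site. The 250 bases before the start of 4 lower genes follow, 5′ to 3′ on the strand of the gene, with matches in capitals. Sult3a1 and Sult3a2 are shown as neighbours that fell together, and Ugt3a1 and Gsta3 were chosen after their matches were seen. The windows of Sult2a8, Gstt3 and Ugt2b37, which held no match, and of Gstm7 are not printed, nor is one of Ugt3a2. The printed windows therefore hold matches more often than the listed ones.
Ugt3a1: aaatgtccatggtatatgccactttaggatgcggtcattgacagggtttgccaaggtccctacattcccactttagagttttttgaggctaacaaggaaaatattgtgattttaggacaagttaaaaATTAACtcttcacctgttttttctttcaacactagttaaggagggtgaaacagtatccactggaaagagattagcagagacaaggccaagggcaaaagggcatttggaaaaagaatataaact
Sult3a2: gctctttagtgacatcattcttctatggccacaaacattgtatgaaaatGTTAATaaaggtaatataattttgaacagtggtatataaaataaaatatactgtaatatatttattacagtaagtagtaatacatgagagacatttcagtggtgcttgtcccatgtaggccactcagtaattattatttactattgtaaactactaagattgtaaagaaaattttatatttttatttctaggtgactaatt
Gsta3: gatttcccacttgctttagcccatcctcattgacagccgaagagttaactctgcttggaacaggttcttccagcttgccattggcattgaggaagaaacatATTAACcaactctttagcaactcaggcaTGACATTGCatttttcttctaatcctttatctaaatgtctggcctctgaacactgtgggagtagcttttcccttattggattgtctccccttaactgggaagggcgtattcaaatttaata
Sult3a1: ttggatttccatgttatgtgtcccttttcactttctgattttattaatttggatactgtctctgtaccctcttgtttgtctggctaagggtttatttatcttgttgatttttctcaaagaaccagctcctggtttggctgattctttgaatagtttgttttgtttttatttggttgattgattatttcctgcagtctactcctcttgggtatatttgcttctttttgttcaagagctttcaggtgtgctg

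Ugt3a1 is on chr15:9279579-9279828 (plus strand), Sult3a2 on chr10:33782116-33782365 (minus strand), Gsta3 on chr1:21240335-21240584 (plus strand) and Sult3a1 on chr10:33857472-33857721 (plus strand). The half-site is read on the plus strand of the gene in Sult3a2 and as ATTAAC, the other strand, in Ugt3a1 and Gsta3. Gsta3 also holds the antioxidant core. Sult3a1 and Sult3a2 point away from each other on opposite strands, and the 5 pairs below -5 were the same for both genes.

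The genes around the conjugating enzymes were taken from lists by role. Of 13 genes for the donors and glutathione, 5 were higher and 0 lower, with a median change of 0.29. For these lists the share of all genes called was 17.9% higher and 14.3% lower. They were Cth (0.93), which makes cysteine, Ugp2 (0.43), which makes UDP-glucose, Gsr (0.40), which restores glutathione, Slc35b2 (0.35), which carries PAPS into the Golgi, and Gss (0.30), the glutathione synthetase. Slc35b2 had the smallest adjusted p, 2.93e-05, with 16 of 18 pairs higher, and the other 4 are named because the count was small, after their values were seen. Papss1 and Papss2, which make PAPS, changed by -0.06 and -0.22 without a call.

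Of 7 transporters of conjugates 1 was higher and 1 lower, against those shares of 17.9% and 14.3%. Abcc4, an exporter of conjugates into blood, rose from 8.77 ± 0.85 to 9.89 ± 1.13 (SD, n = 29 each), a change of 1.13 (SE 0.24, adjusted p = 0.000129), and Abcc6 fell by 0.77 (adjusted p = 0.000542). Of 5 measured enzymes that undo or break down conjugates 3 were higher (Gusb, Ggt6 and Bpnt1) and 1 lower (Ggt5), against the same shares. Gusb, the lysosomal beta-glucuronidase, rose by 0.86 (SE 0.14, adjusted p = 1.98e-06), with 16 of 18 pairs higher.

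Of 15 other conjugating enzymes measured, 9 were lower, against 14.3% of all genes, and 3 were higher (Nnmt, Mgst2 and Hpgds), against 17.9%. Nnmt, which methylates nicotinamide, rose from 7.70 ± 1.03 to 9.74 ± 1.23 (SD, n = 29 each), a change of 2.04 (SE 0.27, adjusted p = 2.87e-08). Mgst2, a microsomal glutathione transferase, rose by 0.80 (SE 0.10, adjusted p = 1.05e-08). Inmt, an indole methyltransferase, fell by 1.31 (SE 0.32, adjusted p = 0.00104), and Glyat, which joins glycine to benzoate, fell by 1.11 (SE 0.14, adjusted p = 1.35e-08).

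Of 14 measured regulators of these enzymes 5 were lower, against 14.3% of all genes, and 0 higher, against 17.9%. Nr1i3, the receptor CAR that induces Ugt, Sult and Gst genes after drug exposure, fell from 11.35 ± 0.97 to 8.56 ± 1.31 (SD, n = 29 each), a change of -2.78 (SE 0.28, adjusted p = 1.32e-11), and was lower in 17 of 18 pairs. The others were Nr1h4 (-0.95), Ahr (-0.78), Hnf4a (-0.33) and Rxra (-0.28), named after their values were seen. Nfe2l2, the factor of the antioxidant response, changed by 0.08 (SE 0.10, adjusted p = 0.58).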

How the data were processed

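Total RNA was labelled with biotin for whole-transcript arrays, per the labels' protocols. The authors deposited log2 values per transcript cluster and array. The submitters' processing notes name Affymetrix Expression Console, while algorithm, version and build are not given in the sources here. Background and detection could not be examined without scanner output, and the number of arrays limits the precision. Of 41345 clusters 23521 carry 1 symbol in the platform table, and of these the brightest was kept for each of 22180 genes. Groups come from the tissue label and animals from the titles, which pair 18 normal livers with a tumor of the same animal. The block correlation between arrays of an animal takes these pairs as given, so it cannot check them.

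Tests ran in R 4.3.3 with limma 3.58.1 and statmod 1.5.0 (lmFit, duplicateCorrelation with a block correlation of 0.145, eBayes with trend, Benjamini-Hochberg over 22180 genes) and were tested on simulated data. The 14 alternatives change the scaling, the use of the animal, the arrays, weights and filters, and 2 of them were chosen after seeing the data, as were the range without normal livers 16 and 19 and the round levels used to count arrays. Named with values were genes called with a change of at least 1, and, for each family, the gene with the highest mean in normal liver and the largest rise and fall. From the pathway lists, genes called with a change of at least 1 and the smallest adjusted p of each list were named. Gene order and promoter windows are from RefSeq (GRCm38.p6), where all 49 genes were found, and no protein sequences were used. The genes and lists were chosen with earlier results of these data known.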

Additional observations from a re-analysis of the deposited data

How the results depend on the processing

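Of the 20 called genes, Ugt3a1, Sult2a8, Gstm6, Gstm7, Gstt2 and Gstt3 were called in the same direction under every alternative in which they were tested. The number of lower genes, 14, was 3 in the animals without a pair alone, where 3.17% of all genes were lower, and 6 among brighter genes only, where 29 of the 49 genes were tested and 17.3% of all genes were lower, and it was between 12 and 16 otherwise. The number of higher genes, 6, was 11 without tumors 9, 16 and 20 and normal livers 16 and 19, where 23.4% of all genes were higher. That set of arrays was chosen after seeing the data. Under the other alternatives the number was between 4 and 9, where 6.18% to 29.8% of all genes were higher. Where the number of lower genes was between 12 and 16, 7.79% to 27.8% of all genes were lower. Genes lower by at least 1, 5 in all, were 8 in the paired fit (18 pairs, replicate block by animal), 3 in the animals without a pair and 2 among brighter genes. The share of all genes lower by that size was not counted under these alternatives. The paired fit lost the calls of Sult1b1, Gstm2, Gstt1 and Gsto1 and added Sult2a1 and Sult2a2, and it changed no other call. The fit with the gender label as a covariate lost no call and added Sult1c1 and Sult2a2. With centred arrays 0 genes had at least 10 tumors below the lowest normal liver and 5 had at least 10 above the highest, and with quantile normalization 0 were below. The share of all genes past these limits was not counted under either setting. Centring also moved the median change over all genes, from -0.02 to 0.03, so these counts do not single out the 49 genes. Over all genes, array weights gave 24.1% higher and 27.8% lower calls. The animals without a pair, 11 arrays of each tissue, lost 13 of the 20 calls, and the cause was not tested. That fit used no animal block, although both tumors of 1 animal were in it.

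No called gene reversed. Among genes that were not called, the change took the other sign, all with the cause not tested, as follows. In the animals without a pair it was -0.0096 for Ugt2b5, -0.0451 for Ugt2b38, 0.099 for Sult1a1, 0.2285 for Sult2a1, 0.0093 for Sult6b2, -0.2792 for Gsta4 and 0.0236 for Gstp1. After quantile normalization it was -0.0161 for Ugt2b5, 0.0018 for Sult2b1, 0.0346 for Sult6b2, -0.0403 for Gsta4 and -0.0607 for Gstm1, and with centred arrays 0.0332 for Sult6b2. In the pairs it was -0.0239 for Sult6b1, -0.091 for Gstm1 and -0.0889 for Gstm3. Without tumor 9 it was 0.0939 for Ugt2b34 and 0.1352 for Sult1d1, and without tumors 9, 16 and 20 and normal livers 16 and 19 it was 0.1254 for Ugt2b34, 0.0672 for Sult1a1 and 0.2115 for Sult1d1. With array weights it was 0.1083 for Ugt2b34, 0.0191 for Sult1a1, 0.1992 for Sult1d1, -0.0039 for Sult6b1 and -0.0178 for Gstt4, and without the 7 arrays against the gender label -0.0569 for Gsta4.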

Other observations

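The Ugt1a and alpha-class Gst genes are read mostly by clusters that carry several symbols and so name no single gene. There were 9 clusters with several symbols of these families. Fitted with limma over all 41345 clusters, both Ugt1a clusters, which span the isoforms sharing the last exons of this locus, were lower in tumors, by 0.68 (SE 0.16, adjusted p = 0.000672, lower in 16 of 18 pairs) and by 0.26 (SE 0.06, adjusted p = 0.00153, lower in 15 of 18 pairs). All 3 clusters shared by Gsta1 and Gsta2, with copies of them, were higher. The changes were 0.92 (SE 0.15, adjusted p = 1.81e-06), 0.92 (SE 0.23, adjusted p = 0.00163) and 0.19 (SE 0.07, adjusted p = 0.0288), and the first and second were higher in 17 of 18 pairs, whereas Gsta3 was lower in 16. The cluster of Gstz1 and Pomt2 changed by -0.33 (adjusted p = 0.0612), that of Gstp1 and Gstp2 by 0.15 (adjusted p = 0.388), that of Gstm5 with a neighbouring gene by 0.01 (adjusted p = 0.963) and that of Ugt2a1 and Ugt2a2 by 0.08 (adjusted p = 0.348).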
